A study of Mus musculus with 8 samples.

Results

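The genes of class I antigen presentation examined in sorted mouse Paneth cells were H2-K1, H2-D1, H2-T23, B2m, Tap1, Tap2, Tapbp, Tapbpl, Erap1 and Nlrc5. They were chosen by name for their place in the pathway, with earlier results of these data known. Each symbol matched exactly 1 of the 55414 Ensembl gene IDs in the deposited count table, giving 10 of 55414. Wild-type (WT) C57BL/6J mice received PBS (phosphate-buffered saline, as control) or the cytokine TNF (tumor necrosis factor) by injection. After 3 hours the small intestine was taken and its Paneth cells were collected by sorting. Bulk RNA-seq gave 4 PBS and 4 TNF libraries. Both groups shared genotype, tissue, time and sort, and differed in the agent injected. Per the study's text each library came from an individual mouse, and the sources used here give neither the dose nor the age of the mice. The series design calls the libraries biological replicates, no label ties them to a day or a batch, and the p-values below measure the spread between these libraries.

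Class I molecules display short peptides from inside the cell to CD8 T cells. A heavy chain (H2-K1 and H2-D1 are the classical chains of this strain, H2-T23 a non-classical one) pairs with beta-2 microglobulin (B2m), while the Tap1 and Tap2 proteins pump peptides into the endoplasmic reticulum. There tapasin (Tapbp) and the related TAPBPR (Tapbpl) load and edit the peptides that the aminopeptidase Erap1 trims, and Nlrc5 is the transactivator of class I promoters. In the gut, Paneth cells fill granules with host defence proteins, among them the alpha-defensins (Defa genes).

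Library totals ran from 23824717 to 32576077 counts. Values are given below as normalized CPM, counts scaled to the library total and by the trimmed mean of M-values (TMM), unless another scale is named. TNF replicate 4 stood apart. Its TMM factor was 0.448 against 0.995 to 1.36 in the other libraries, Defa genes took 51.4% of its counts against 32% to 37.9%, and mitochondrial genes 1.01% against 0.595% to 0.797%. Paneth cell markers were present in all libraries and summed to between 317491 and 466559 in PBS and between 392573 and 1235293 in TNF, the highest in TNF replicate 4 (1 of 8 called higher). Of the leukocyte list, 10 of 19 markers (among them Cd3e, Cd4, Cd8a, Adgre1 and Itgax) had 0 counts in all 8. The summed leukocyte markers ranged from 10 to 14.8 in PBS and from 14.5 to 72.5 in TNF, the highest in TNF replicate 4, and those of stroma and endothelium (9 genes) from 0.223 to 0.453 and from 1.23 to 1.87, with Col1a2 and Col3a1 at 0 in all libraries. Only 4 of the leukocyte markers and 1 of those of stroma and endothelium were tested. In these lists Ms4a1, Cd52 and Vim were called higher in TNF, beside 23.3% of all tested genes. Goblet cell markers summed to between 7160 and 11190 in PBS and between 11243 and 25451 in TNF (1 called higher, 2 lower), and enterocyte markers to between 319 and 369 and between 307 and 332 (2 lower). The part of such cells in the results was not tested. Fewer cells of a type and less RNA per cell cannot be told apart in bulk libraries.

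Of the 10 genes, 8 were called higher by the edgeR quasi-likelihood test at an adjusted p under 0.05, none was called lower, and H2-K1 and H2-T23 were not called. Across the 13368 genes tested, 43% were called in either direction, 23.3% higher and 19.6% lower. The peptide transporter genes Tap1 and Tap2 and the TAPBPR gene Tapbpl showed the largest rises, each more than 5-fold, while the classical heavy chain H2-D1 rose 3.19-fold and its paralog H2-K1 stood at 1.15-fold without passing the test. A call with a rise of at least 2-fold held for 6 of the 10 and for 9.76% of all tested genes. For 7 of the 10 every TNF library lay above every PBS library, which held for 22.4% of all tested genes. The median log2 fold change was 1.70 over the 10 genes and 0.026 over all genes tested. All 10 passed the low-count filter.

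**Figure D1:**
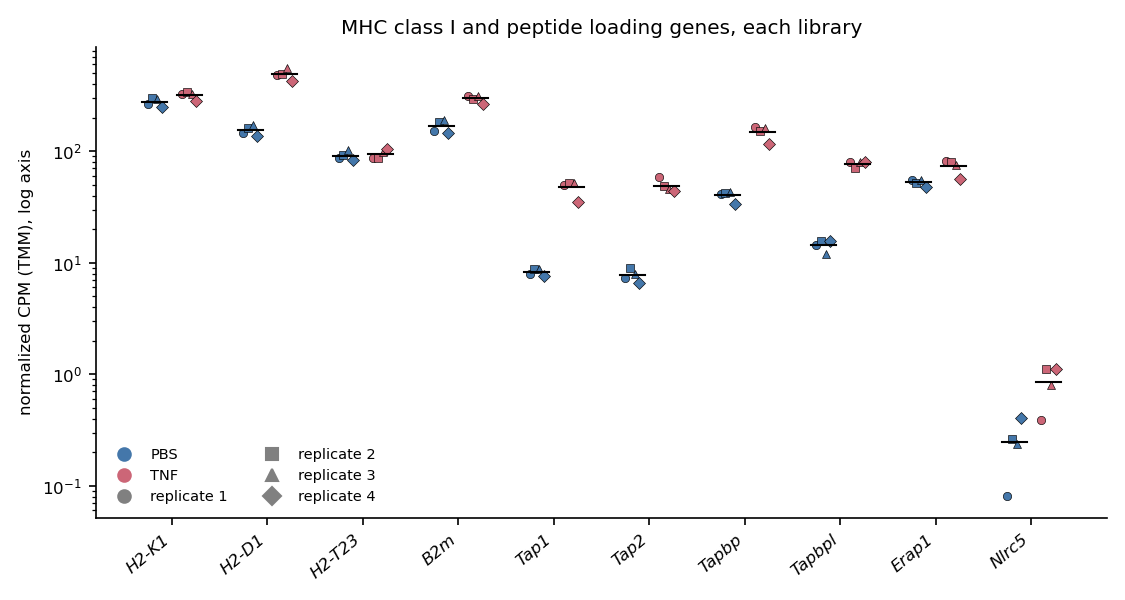
Normalized CPM (log axis) of the 10 genes in each of the 8 libraries, PBS in blue and TNF in red, with the symbol marking the replicate number and the bar the mean of 4 libraries. For Tap1, Tap2, Tapbp, Tapbpl, H2-D1, B2m and Erap1 all TNF points lie above all PBS points, while those of H2-K1, H2-T23 and Nlrc5 overlap.

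Calls of B2m, Erap1 and Nlrc5 depended on the scaling. Under library size alone the median over all tested genes moved from 0.026 to -0.38, and the share of calls that were higher from 54.3% to 23.8%. On that scale 757 of the 13368 tested genes were called higher and 2425 lower. Of the 10 genes 5 were called higher there, namely H2-D1, Tap1, Tap2, Tapbp and Tapbpl, which were also called under each of the 17 alternatives tried. Relative to the shifted median, B2m stood at 0.86, Erap1 at 0.52 and Nlrc5 at 1.65 on the log2 scale. The counts of the 10 genes together were 0.0905% to 0.0987% of all counts in PBS and 0.161% to 0.182% in TNF replicates 1 to 3, but 0.0632% (exact 95% interval 0.0623% to 0.0642%, counting error only) in TNF replicate 4. That library lay below the PBS range on this scale and within or above it for every one of the 10 genes after TMM scaling. Without TNF replicate 4, 9 of the 10 genes were called higher, H2-K1 being the one added. Calls over all genes rose as well, from 3121 higher of 13368 tested genes to 3657 of 13726.

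**Figure D2:**
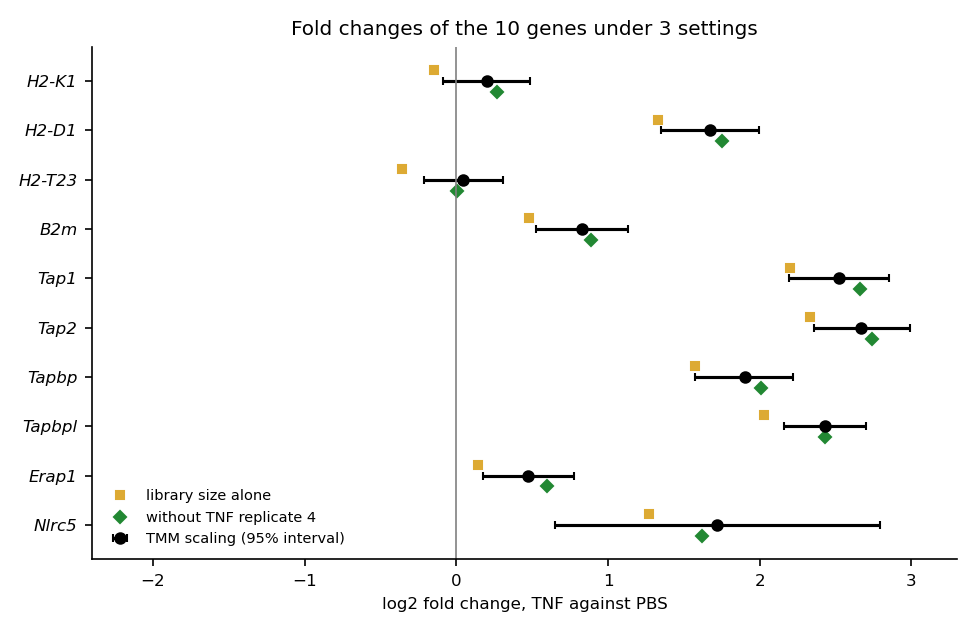
Log2 fold change (TNF against PBS) of the 10 genes under TMM scaling with all 8 libraries (black, bars the 95% interval), under library size alone (yellow squares) and without TNF replicate 4 (green diamonds). Library size alone moves each gene to the left, taking H2-K1 and H2-T23 below 0, whereas leaving out TNF replicate 4 moves no gene by more than the interval.

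H2-K1 (ENSMUSG00000061232, GRCm39 chr17:34214987-34219321, minus strand) encodes the classical heavy chain H-2K. It stood at 264, 298, 293 and 250 in PBS replicates 1 to 4 and at 323, 338, 328 and 282 in TNF replicates 1 to 4. TNF replicate 4 was the lowest TNF library and lay inside the PBS range, so the groups overlapped. Means were 277 ± 23.1 and 318 ± 24.8 (SD, n = 4 each). The log2 fold change of 0.20 (SE 0.13) corresponds to 1.15-fold with a 95% interval of 0.943 to 1.4, and it was not called (edgeR adjusted p = 0.234). It was called without TNF replicate 4 (0.27, edgeR adjusted p = 0.039) and changed sign under library size alone (-0.15), where it stood 0.23 above the median of all genes.

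H2-D1 (ENSMUSG00000073411, GRCm39 chr17:35481691-35486475, plus strand) encodes the other classical chain, H-2D. Its values were 145, 160, 173 and 136 in the PBS libraries and 487, 492, 553 and 426 in the TNF libraries. The lowest TNF library was more than 2-fold above the highest PBS library. The mean went from 154 ± 16.6 to 489 ± 51.9 (SD, n = 4 each), a 3.19-fold rise (95% interval 2.55 to 3.98, log2 1.67, SE 0.14, edgeR adjusted p = 8.51e-06). B2m (ENSMUSG00000060802, GRCm39 chr2:121977957-121983594, plus strand), the light chain shared by all class I molecules, gave 151, 182, 190 and 146 in PBS and 310, 295, 315 and 266 in TNF. The groups were apart. B2m rose 1.77-fold (95% interval 1.44 to 2.19, log2 0.83, SE 0.14, edgeR adjusted p = 0.000721). With library size alone the log2 value of 0.48 was not called (edgeR adjusted p = 0.274).

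H2-T23 (ENSMUSG00000067212, GRCm39 chr17:36340229-36345571, minus strand) encodes the non-classical chain Qa-1, a ligand of NKG2A receptors. It stood at 86.3, 93.2, 102 and 83.6 in PBS and at 86.7, 87.7, 97.4 and 105 in TNF. The groups lay over each other and no library was far from the rest. Fold change was 1.03 (95% interval 0.861 to 1.24, log2 0.045, SE 0.12, edgeR adjusted p = 0.785), and its sign turned under 4 alternatives, with -0.36 under library size alone (0.02 above the median of all genes there), -0.0042 with no low-count filter, -0.017 without PBS replicate 1 and -0.034 without PBS replicate 4.

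The promoter letters of the heavy and light chains are shown because classical class I promoters are known to carry an NF-kB site and an interferon-stimulated response element (ISRE). RefSeq promoter windows (table built on GRCm38.p6) were matched for 7 of the 10 genes, namely H2-K1, H2-D1, H2-T23, B2m, Tap1, Tapbp and Erap1, and the 250 bases before each start were searched on both strands. Capitals mark letters that match the 10-base NF-kB consensus or the ISRE core (GAAA, any 2 bases, GAAA) on either strand, in stretches of 30 bases written 5′ to 3′ along the gene's strand and placed on GRCm39 by exact match.
H2-K1: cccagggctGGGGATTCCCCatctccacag
H2-D1: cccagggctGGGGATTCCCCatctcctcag
B2m: catGAAACTGAAAatgGGAAAGTCCCtttg
H2-T23: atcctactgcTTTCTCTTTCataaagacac
They lie at chr17:34219412-34219441 (minus strand), chr17:35481890-35481919 (plus), chr2:121978026-121978055 (plus) and chr17:36343698-36343727 (minus). The H2-K1 stretch begins 134 bases before the further downstream of its 2 RefSeq starts and that of H2-D1 180 bases before, and both hold overlapping NF-kB matches in the same run of letters. GENCODE places the start of the canonical H2-D1, B2m and H2-T23 transcripts further upstream, so these stretches lie in their first exon there, whereas that of H2-K1 lies outside the exons of its canonical transcript.

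The H2-K1 and H2-D1 stretches were the same in 29 of 30 bases. No exact match of the ISRE core was found in the windows of either gene. The letters tttcacttct, which follow the stretch directly in both genes, begin like the core read on the opposite strand but do not match it. Variants of the core were not searched for, so the search does not show that these promoters lack an ISRE. B2m held both an ISRE core and an NF-kB match, and H2-T23 an ISRE core on the opposite strand. Among 32851 RefSeq windows of this length the NF-kB consensus was found in 3.9% (3 of the 7 genes), the ISRE core in 2.98% (2 of 7), both together in 0.122% (1 of 7), the STAT motif TTCNNNGAA in 7.02% (0 of 7) and the CCAAT box ATTGG in 33.8% (6 of 7, all but Erap1). A match of letters describes the window and is not a measured binding site.

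**Figure D3:**
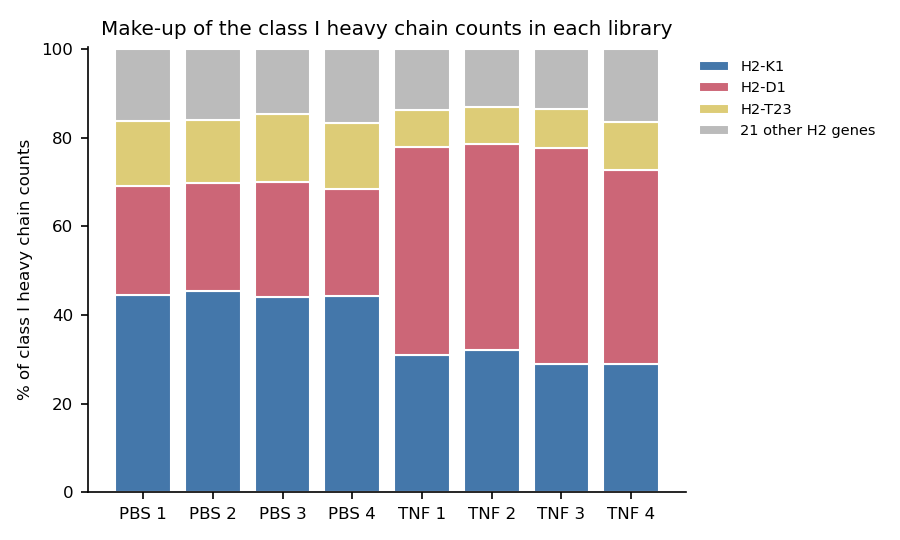
Share of the counts of 24 class I heavy chain (H2) genes held by H2-K1, H2-D1, H2-T23 and the 21 others together, 1 stacked bar per library, in percent. H2-K1 is the largest part in the 4 PBS libraries and H2-D1 in the 4 TNF libraries, TNF replicate 4 included.

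The share of H2-D1 in the heavy chain counts was higher and that of H2-K1 lower in every TNF library, while the mean normalized CPM of H2-K1 was 277 in PBS and 318 in TNF and that of H2-T23 91.3 and 94.2. Among the counts of 24 H2 genes, H2-K1 held 44.6%, 45.4%, 44% and 44.4% in PBS and 31.1%, 32.1%, 29% and 29% in TNF. H2-D1 held 24.5%, 24.4%, 26% and 24.1% in PBS and 46.9%, 46.6%, 48.8% and 43.7% in TNF. The order of both genes was thus turned in every TNF library. H2-T23 went from 14.7% ± 0.483 to 9.02% ± 1.19 and the 21 others from 16% ± 0.854 to 14.2% ± 1.57 (SD, n = 4 each). The summed level of the 24 genes was 620 ± 50 in PBS and 1049 ± 65.6 in TNF, a ratio of 1.69, and that of the 21 others 98.7 ± 4.63 and 148 ± 11.1, a ratio of 1.5.

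A ratio of 2 genes within a library does not depend on scaling, and 9 such pairs were compared. The exact permutation test used was two-sided, with 70 assignments and a smallest possible p of 0.0286. The log2 ratio of H2-K1 to H2-D1 was 0.86, 0.90, 0.76 and 0.88 in PBS and -0.59, -0.54, -0.75 and -0.59 in TNF. It was above 0 in every PBS library and below 0 in every TNF library, a difference of -1.47 (exact p = 0.0286, adjusted over the 9 pairs 0.0367), or a change of the count ratio from 1.8 to 0.651. H2-K1 fell against B2m, from 0.73 ± 0.081 to 0.10 ± 0.065, and H2-D1 rose against it, from -0.12 ± 0.052 to 0.72 ± 0.07 (log2, SD, n = 4 each, exact permutation p = 0.0286 and adjusted 0.0367 for either). These 3 pairs passed also without any 1 of the 8 libraries.

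Reads of these paralogs can be shared. Of the 75-base stretches of the canonical transcript, 80.4% were found in no other gene for H2-K1, 67.5% for H2-D1 and 74% for H2-T23, with shared stretches between H2-K1, H2-D1, H2-T23 and several H2-Q and H2-T genes. The sources used here do not say how reads that match several genes were counted, so the split between H2 genes is uncertain at that level. B2m had 100%. H2-K1 and H2-D1 also overlap noncoding genes on the opposite strand (Gm53999 and 5430410E06Rik), and whether counting used the strand is not given either.

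The peptide transporter genes had the largest fold changes of the 10, with intervals that overlapped that of Tapbpl. Tap1 (ENSMUSG00000037321, GRCm39 chr17:34405996-34416199, plus strand) stood at 7.86, 8.78, 8.79 and 7.61 in PBS and at 49.8, 52.3, 52.2 and 35.1 in TNF. TNF replicate 4 was well below the other TNF libraries and still far above the PBS range. The rise was 5.75-fold (95% interval 4.58 to 7.22, log2 2.52, SE 0.15, edgeR adjusted p = 6.53e-07). Tap2 (ENSMUSG00000024339, GRCm39 chr17:34422501-34435829, plus strand), which encodes the partner subunit, gave 7.35, 9, 8 and 6.59 in PBS and 58.6, 48.6, 46.2 and 43.6 in TNF. Groups were apart, with a rise of 6.38-fold (95% interval 5.13 to 7.94, log2 2.67, SE 0.14, edgeR adjusted p = 3.61e-07). The log2 ratio of counts of Tap1 to Tap2 was 0.10 ± 0.10 in PBS and -0.065 ± 0.24 in TNF (SD, n = 4 each), and the difference of -0.17 did not pass (exact permutation p = 0.286).

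Tap1 lies head to head with Psmb9, an immunoproteasome subunit gene on the opposite strand at chr17:34400960-34406738, and the annotated genes overlap at their starts. Psmb8 (chr17:34416690-34420428) and Tap2 follow on the same stretch of chromosome 17, where 6 of the 10 genes lie within 2.21 Mb. Log2 ratios of Tap1 to Psmb9 were 0.45, 0.55, 0.64 and 0.70 in PBS and 1.64, 1.61, 2.11 and 0.56 in TNF. TNF replicate 4 alone fell in the PBS range. The difference of 0.90 did not pass with it (exact permutation p = 0.0857, adjusted 0.0964), and it was 1.20 without it (exact permutation, adjusted p = 0.0367). Of the 75-base stretches, 90.4% of those of Tap1 and 65.5% of those of Psmb9 were found in no other gene, the rest being shared within this pair, and 92.3% of those of Tap2, which overlaps the noncoding Gm20496 and Gm15821.

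Both peptide editors rose. Tapbp (ENSMUSG00000024308, GRCm39 chr17:34134873-34148267, plus strand), the gene of tapasin that bridges the transporter and the empty class I molecule, stood at 41.2, 42.3, 42.9 and 33.9 in PBS and at 166, 151, 162 and 117 in TNF. Replicate 4 was the lowest library of each group, and the groups were apart. The rise was 3.72-fold (95% interval 2.98 to 4.65, log2 1.90, SE 0.14, edgeR adjusted p = 3.83e-06). Tapbpl (ENSMUSG00000038213, GRCm39 chr6:125200373-125208994, minus strand) encodes TAPBPR, an editor that works outside the loading complex, and gave 14.5, 15.7, 11.9 and 15.5 in PBS and 80.4, 70, 80 and 79.7 in TNF. The TNF libraries were close together apart from a lower replicate 2. The rise was 5.39-fold (95% interval 4.46 to 6.51, log2 2.43, SE 0.12, edgeR adjusted p = 3.18e-07).

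Tapbpl thus gained on Tapbp. Their log2 ratio Tapbp to Tapbpl was 1.51, 1.43, 1.85 and 1.13 in PBS and 1.05, 1.11, 1.01 and 0.56 in TNF, so that the highest TNF library lay just under the lowest PBS library. The difference of -0.55 passed (exact permutation p = 0.0286, adjusted 0.0367) but did so no longer without any 1 of the TNF libraries (differences from -0.61 to -0.42, adjusted p from 0.0643 to 0.0735). Tapbp shares transcript bases with Zbtb22 and with noncoding genes on the opposite strand (70.7% of its 75-base stretches were found in no other gene), whereas Tapbpl, which overlaps Vamp1, had 97.9%.

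Erap1 (ENSMUSG00000021583, GRCm39 chr13:74787687-74841320, plus strand), the aminopeptidase that shortens peptides to the length class I molecules bind, changed less. It stood at 55.1, 51.8, 55.3 and 48.2 in PBS and at 80.9, 80.5, 74.5 and 56 in TNF. TNF replicate 4 was only just above the highest PBS library, and the other 3 were clearly higher. The rise of 1.39-fold was called (95% interval 1.13 to 1.71, log2 0.47, SE 0.13, edgeR adjusted p = 0.0148), but not under library size alone (0.14, edgeR adjusted p = 0.791), with no low-count filter, or when PBS replicate 1, PBS replicate 4, TNF replicate 1 or TNF replicate 2 was left out (0.39 to 0.47, edgeR adjusted p from 0.0577 to 0.0962). It was 0.60 without TNF replicate 4. Of its 75-base stretches 86.3% were found in no other gene, the rest being shared with Cast on the opposite strand.

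Nlrc5 (ENSMUSG00000074151, GRCm39 chr8:95160984-95253900, plus strand), the transactivator, was close to the limit of detection. Raw counts were 3, 7, 6 and 18 in PBS and 11, 32, 23 and 13 in TNF, or 0.0805, 0.26, 0.237 and 0.407 and 0.391, 1.11, 0.808 and 1.12 normalized CPM. PBS replicate 4 lay above TNF replicate 1, so the groups overlapped. The fitted rise was 3.3-fold with a wide 95% interval of 1.57 to 6.93 (log2 1.72, SE 0.48, edgeR adjusted p = 0.0146). It was not called under library size alone (1.27, edgeR adjusted p = 0.0871) or without TNF replicate 2 (1.50, edgeR adjusted p = 0.0503), and it was not tested where at least 1 CPM in 4 libraries was asked for.

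Levels of different genes were compared per length, as a TPM-type value computed from counts per kilobase of exon. In the PBS libraries H2-K1 stood at 96.2 ± 9.75, B2m at 87.6 ± 5.42, H2-D1 at 56.8 ± 5 and H2-T23 at 29.5 ± 3.29 (SD, n = 4 each). The loading genes followed, with Tapbp between 9.04 and 11.4, Erap1 at 7.24 ± 1.15, Tapbpl at 5.06 ± 1.31, Tap2 at 1.79 ± 0.134 and Tap1 at 1.53 ± 0.169, and Nlrc5 was last at 0.0331 ± 0.0229. Neighbours whose libraries overlapped were H2-K1 and B2m, Erap1 and Tapbpl, and Tap2 and Tap1, and the last pair changed places with the length of the canonical transcript. The values themselves depend on the length used, and with canonical lengths the PBS means were 161 for H2-K1, 145 for B2m, 58.6 for H2-T23 and 2.52 for Tap1. In the TNF group H2-D1 came first (170, 149, 187 and 44.9), followed by B2m (154, 127, 152 and 40) and H2-K1 (106, 96.3, 104 and 28). On this scale TNF replicate 4 lay below the other TNF libraries for all 10 genes, and all neighbours in the TNF order overlapped except Tap1 and Nlrc5. Its large Defa share stood beside this, and the part of that share in these levels was not tested.

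**Figure D4:**
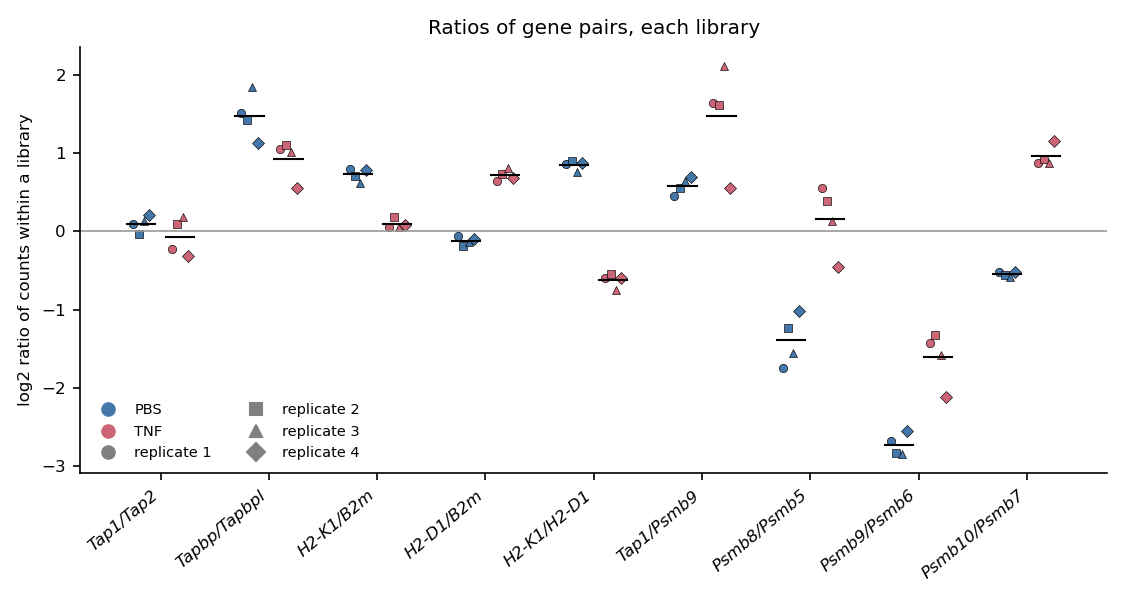
Log2 ratio of counts of 9 gene pairs within each library, PBS in blue and TNF in red, with the symbol marking the replicate number and bars the mean of 4 libraries. The groups do not overlap for 7 pairs, H2-K1/H2-D1 crossing from above to below 0, while Tap1/Tap2 and Tap1/Psmb9 overlap.

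Other genes of the pathway were taken from lists that had been drawn up by function, with earlier results of these data known. Of 53 such genes tested, 19 were called higher (35.8%) and 5 lower (9.43%), beside 23.3% and 19.6% of all genes. Among 14 other class I heavy chain and class I-like genes, 3 were called higher and 2 lower, with a median log2 fold change of 0.02. H2-Q4, a non-classical chain, rose most, from 7.12 ± 1.35 to 38.1 ± 6 (SD, n = 4 each, log2 2.41, SE 0.17, edgeR adjusted p = 1.79e-06), followed by H2-Q7 (2.06) and H2-T22 (0.51). With library size alone, 2 of this list were called higher and 2 lower (median -0.39), beside 757 higher and 2425 lower of all 13368 tested genes. H2-T3 fell by 0.68 and Fcgrt, the neonatal Fc receptor that also pairs with B2m, fell by 1.86 (SE 0.37, edgeR adjusted p = 0.00228) from a low level of 1.9 ± 0.609 to 0.499 ± 0.221.

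The immunoproteasome makes peptides for class I molecules in inflamed cells. All 6 genes of the list for it and its activator were called higher, with a median of 1.77 (1.45 without TNF replicate 4). Besides the subunit genes named below, the list holds Psme1 (log2 0.74), Psme2 (1.94) and Pomp (0.60). Psme2 stood at 205 in TNF replicate 4 against 68.4 to 78.4 in the other TNF libraries. Under library size alone 4 of the 6 were called higher, with a median of 1.25, beside 757 of the 13368 tested genes. Psmb8 rose by 1.94 (SE 0.20), Psmb10 by 1.91 (SE 0.21) and Psmb9 by 1.64 (SE 0.20) on the log2 scale, with edgeR adjusted p of 2.26e-05, 3.72e-05 and 7.55e-05. None of the constitutive counterparts was called, with Psmb5 at 0.47, Psmb6 at 0.60 and Psmb7 at 0.38 (edgeR adjusted p of 0.22, 0.139 and 0.08). Those values leaned on TNF replicate 4, where Psmb6 stood at 103 against 36.2 to 42.9 in the other TNF libraries, and without it they were 0.08, 0.15 and 0.25. Each induced subunit gained on the constitutive one it replaces. Log2 ratios rose by 1.55 for Psmb8 to Psmb5, 1.12 for Psmb9 to Psmb6 and 1.50 for Psmb10 to Psmb7 (exact permutation p = 0.0286, adjusted 0.0367, for each), the second not passing without any 1 of the PBS libraries (differences of 1.08 to 1.18, exact permutation, adjusted p = 0.0735).

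Of 8 folding and export factors of the endoplasmic reticulum, none was called higher and 2 lower (median -0.27), namely Mogs, which trims glycans (-0.69, SE 0.14, edgeR adjusted p = 0.003), and Uggt1, which checks glycoprotein folding (-0.62). The chaperones of the loading complex were not called, with log2 fold changes of 0.23 for Calr, 0.059 for Canx and -0.34 for Pdia3. With library size alone, 3 of the 8 were called lower (median -0.63), beside 2425 of all 13368 tested genes. Among 7 other peptide-trimming peptidases 2 were called higher, Lap3 (0.87) and Tpp2 (0.75), and 1 lower, Npepps (-0.53), with a median of 0.21. Under library size alone none of the 7 peptidases was called in either direction (median -0.10). Without TNF replicate 4 the peptidases had 4 called higher and 1 lower, and the folding factors 0 higher and 4 lower. In that fit 3657 of all 13726 tested genes were called higher and 3266 lower.

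Of 15 transcription factors known at class I promoters, 8 were called higher, none lower, with a median of 0.75. Irf1 went from 28.2 ± 2.91 to 144 ± 19.3 (SD, n = 4 each), 2.35 on the log2 scale (SE 0.14, edgeR adjusted p = 6.68e-07). The NF-kB genes Rela and Nfkb1 rose by 2.31 and 2.02 (edgeR adjusted p = 2.15e-06 and 3.85e-06). Of the factors of the X and Y boxes, through which Nlrc5 acts, Creb1 rose by 0.75 (edgeR adjusted p = 0.00114), while Rfx5 (0.30, edgeR adjusted p = 0.185), Rfxap, Rfxank, Atf1, Nfya, Nfyb and Nfyc were not called. Under library size alone 4 of the 15 were called higher, beside 757 of all 13368 tested genes. All 10 interferon ligand genes listed, Ifng and Ifnb1 among them, had 0 counts in all 8 libraries, which allows up to 3 counts in each.

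**Figure D5:**
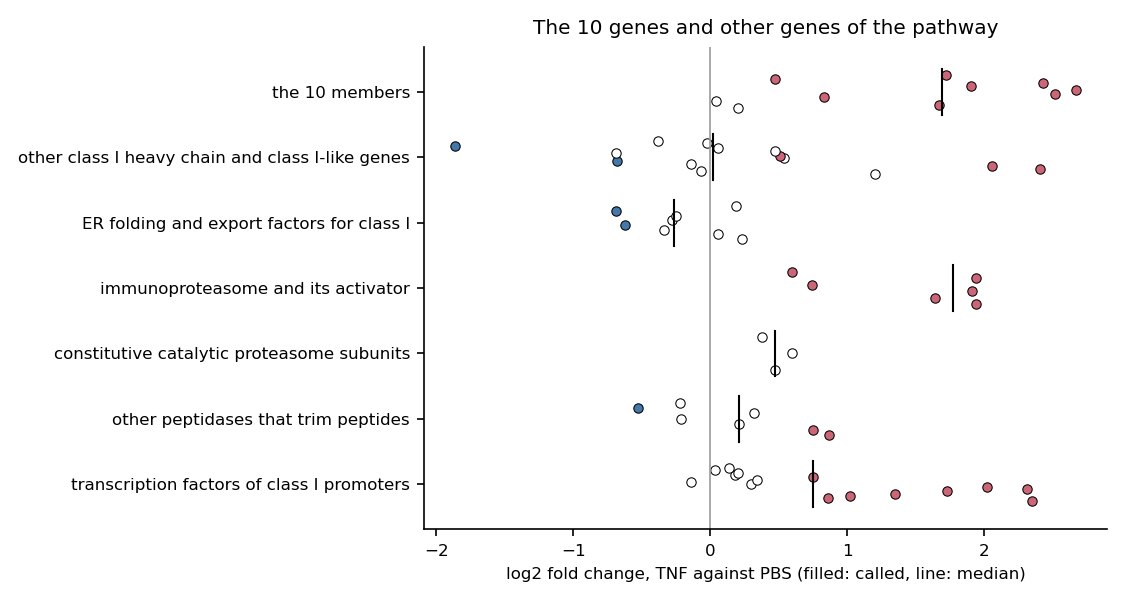
Log2 fold change (TNF against PBS) of the 10 genes and of 6 lists of other pathway genes, 1 point per tested gene, red where called higher, blue where called lower and open where not called, with the line at each list's median. The medians are 1.70 for the 10 genes, 1.77 for the immunoproteasome and its activator, 0.75 for the transcription factors, and 0.47 or less for the other lists.

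The genes of no list whose profile over the 8 libraries lay closest to B2m were Pgam5, a mitochondrial phosphatase, Utp15 and Fpgs (root mean square difference of centred log2 values 0.0882, 0.0984 and 0.102, among 8422 genes). For Tap1 they were Gm20412, Tgm2 (transglutaminase 2) and Cxadr, the coxsackievirus and adenovirus receptor (0.124, 0.127 and 0.131). These rose by 2.44, 2.42 and 2.55 on the log2 scale beside 2.52 for Tap1. The closest to Nlrc5 lay further off, with Pdzk1ip1 at 0.194, 1110038F14Rik at 0.198 and Slc49a4 at 0.199, and rose by 0.94, 0.91 and 0.70 beside 1.72 for Nlrc5. A pseudocount of 0.5 normalized CPM was added here, which is above the PBS mean of Nlrc5, 0.246.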

How the data were processed

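RNA was isolated from sorted Paneth cells and libraries were made with a stranded mRNA kit. The table deposited by the authors held whole-number read counts, not normalized, with 55414 Ensembl gene IDs as rows and the 8 libraries as columns. The submitters' processing notes name FastQC 0.12, STAR 2.7.10a, DESeq2 and the mm39 build. The sources used here do not give the counter, its annotation or its treatment of strand and of reads with several matches. Symbols, positions and exon lengths came from GENCODE vM39 (GRCm39), matching 54749 IDs.

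From these counts, edgeR 4.0.16 (R 4.3.3) was run with TMM scaling, filterByExpr and the quasi-likelihood test over 13368 genes, with Benjamini-Hochberg adjustment and calls at an adjusted p under 0.05. The script was tested on simulated data. Fold change intervals are 95% and use the t distribution of that fit. Pair ratios added 0.5 counts. No duplicate libraries were found (lowest chi-square per degree of freedom 8.77). Alternatives were RLE scaling, library size alone, TMM without Defa genes, Lyz1 and Itln1, other filters, DESeq2 1.42.0, limma-voom (limma 3.58.1), the replicate number as a block, each library left out, and adjusted p under 0.01.

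Named genes were the 10 genes, the genes of the 9 pairs, the most raised and most lowered called gene of each list with Irf1, Rela, Nfkb1 and Rfx5, and the 3 nearest profiles of B2m, Tap1 and Nlrc5 (mean normalized CPM of at least 5). H2-Q7, H2-T22, H2-T3, Psme1, Psme2, Pomp, Uggt1, Calr, Canx, Pdia3, Tpp2, the other X and Y box factors, Ifng, Ifnb1 and markers were named after their values were seen. The genes and lists were chosen with earlier results of these data known, and the lists were compiled by function. H2-L, H2-T26 and H2-T27 matched no ID. Some genes covered by these rules are not reported here.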

Additional observations from a re-analysis of the deposited data

Results flagged for a closer look

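Groups of 4 libraries were checked for a lowest or highest library far from the rest by Dixon's criterion, over 38 groups, of which chance would mark about 1 in 20, and 3 were marked. Tap1 in TNF had a lowest library of 35.1 normalized CPM (replicate 4), with the other 3 libraries between 49.8 and 52.3. Tapbpl in TNF had a lowest library of 70 (replicate 2), with the others between 79.7 and 80.4. The log2 ratio of Psmb10 to Psmb7 in TNF had a highest library of 1.16 (replicate 4), with the others between 0.87 and 0.92. Tap1, Tapbpl and the ratio stayed past their tests without the library concerned.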

How the results depend on the processing

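Under library size alone 3182 genes were called in place of 5746, 5 of the 10 class I genes in place of 8 with a median log2 fold change of 1.30, and 15 pathway list genes in place of 24, while H2-K1 (-0.15), H2-T23 (-0.36), Psmb5 (-0.074), Psmb7 (-0.061) and Rfx5 (-0.13) took the opposite sign to the one under TMM. H2-T23 was also below 0 with no low-count filter (-0.0042), without PBS replicate 1 (-0.017) and without PBS replicate 4 (-0.034), and ranged from -0.034 to 0.10 over the left-out libraries. Leaving out each library gave 6 to 9 of the 10 class I genes called, medians of 1.50 to 1.73, 4757 to 6923 genes called in all, 24 to 29 pathway list genes and 6 to 7 pairs. H2-D1, Tap1, Tap2, Tapbp and Tapbpl were called in each of 17 alternatives, and B2m in 16. At an adjusted p under 0.01, 6 of the 10 were called, Erap1 and Nlrc5 being lost. The cause of these shifts was not tested.

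Replicate numbers are shared between groups, and no label says that they mark pairs. Deviations of same-numbered libraries from their group means had correlations from -0.144 to 0.0663, and 2 of 4 libraries were closest to their own number. With 4 libraries per group this cannot tell whether same-numbered libraries shared a day or a sort. With the replicate number as a block, 5087 genes were called in all, 8 of the 10 class I genes and 23 pathway list genes. Of the immunoproteasome and activator list, 5 of the 6 genes were called. Sign flips over equal numbers cannot give a p under 0.125, so that 0 of the 9 pairs could pass.

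Depth limits Nlrc5, whose 3 to 32 counts per library leave a wide interval. Levels kept 8 of 10 places in PBS with canonical transcript lengths, and shares of unique 50-base stretches were lower than those of 75 bases for most genes.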
